A study of Drosophila yakuba and Drosophila melanogaster with 20 samples.

Results

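A-to-G and T-to-C base differences that recurred between libraries of Drosophila melanogaster head RNA, but lay far from every editing site on the authors' list, numbered 771. They were chosen from the tables of base differences of 4 libraries by the following rule. The position was on a nuclear chromosome, more than 1000 bp from every one of the 1238 listed sites, and present in 3 or more of the 4 tables with the same change, whatever its letter case. The 4 tables together held 1724759 distinct differences of all kinds. Of the 119859 A-to-G and T-to-C positions beyond 1000 bp, 0.643% met the requirement for 3 tables. Presence in the tables and distance to the list therefore describe how the positions were chosen and are not results.

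The series compared A-to-I editing in heads of D. melanogaster and D. yakuba by ICE-seq, in which acrylonitrile-treated RNA is set against mock-treated RNA. The 4 tables come from mock-treated RNA of adult heads of the strain y; cn, bw, sp, without acrylonitrile, in 2 libraries under the name of the NextSeq (86-nt reads) and 2 under that of the HiSeq (50-nt reads). About 50 heads went into a sample, by the protocol that the libraries share, and the labels do not say whether the replicates are separate groups of flies. The other 16 of the 20 libraries, D. yakuba ones among them, were not used directly. Which libraries the D. melanogaster site list was made from is not given. The tables gave 419113 and 1087962 distinct differences in NextSeq replicates 1 and 2, and 115079 and 196988 in HiSeq replicates 1 and 2. They hold no read counts, so depth, editing levels and the number of reads behind a difference are unknown.

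The ADAR enzymes deaminate adenosine in double-stranded RNA, and the inosine so made is copied as guanosine. In sequencing reads an edited base appears as A-to-G, or as T-to-C against the forward genome strand when the transcript is read from the reverse strand. Drosophila has a single such enzyme, Adar, which is known for its work in the nervous system. Long duplexes can be edited at many adenosines close to each other, all on the strand of the transcript. The enzyme is known to disfavour a G on the 5′ side of the edited base. The mutations y, cn, bw and sp are carried by the strain from which the reference genome was sequenced.

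The densest runs among the 771 positions are shown here with the reference bases that the 4 tables gave for them, on the strand that carries the adenosine (dm3, with 10 bp on each side). A run is a set of positions with the same reference base and gaps of at most 100 bp. Capitals mark the positions of the run, lower-case letters other bases whose identity a difference in any table disclosed, and n bases that no table listed. The first sequence has 5 positions and the most neighbouring bases known, the second 5 positions in 28 bp, the third 5 positions and no other recurrent difference beside it, the fourth the longest run, and the fifth a position seen in both letter cases in every table.
chr3R:7577785-7577909, reverse strand: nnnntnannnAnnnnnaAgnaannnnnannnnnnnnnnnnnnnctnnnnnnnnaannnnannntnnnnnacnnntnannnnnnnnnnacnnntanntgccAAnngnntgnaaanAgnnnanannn
chr3R:11124615-11124662, forward strand: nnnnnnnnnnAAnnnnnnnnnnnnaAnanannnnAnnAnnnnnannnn
chr4:497281-497322, reverse strand: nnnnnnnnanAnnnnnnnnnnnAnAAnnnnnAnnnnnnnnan
chrX:8916858-8916986, forward strand: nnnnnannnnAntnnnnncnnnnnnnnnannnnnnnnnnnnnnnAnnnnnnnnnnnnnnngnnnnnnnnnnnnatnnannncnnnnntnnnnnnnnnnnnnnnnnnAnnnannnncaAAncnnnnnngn
chr2L:9304105-9304146, forward strand: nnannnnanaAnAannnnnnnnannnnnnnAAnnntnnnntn

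The run on X from 8916868 to 8916976 spanned 109 bp with 5 positions, of which 3 were in all 4 tables. NextSeq replicates 1 and 2 listed 3 and 5 of them, and HiSeq replicates 1 and 2 listed 5 each. In NextSeq replicate 2 all 5 appeared in both letter cases, against 1 in NextSeq replicate 1, 2 in HiSeq replicate 1 and 4 in HiSeq replicate 2. Letter case is read here as the strand of the sequencing read, so both cases mean that forward and reverse reads showed the change; the files do not define it. Within 100 bp, 3 further A-to-G differences of the same strand were present in 2 tables, and no recurrent difference of any other kind. The nearest listed site, at X 8921108, lay 4132 bp away and was on the same strand.

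The run on 3R from 11124625 to 11124652 also had 5 positions, in a shorter span. NextSeq replicates 1 and 2 listed 3 each of its 5 positions, and HiSeq replicates 1 and 2 listed 4 and 5. Both letter cases were seen at 0 of them in either NextSeq replicate, and at 3 and 2 in HiSeq replicates 1 and 2. No position was in all 4 tables. Another 3 A-to-G differences of the same strand stood within 100 bp in 2 tables, and again no other kind. The nearest listed site, at 3R 11128118, was 3466 bp away on the same strand.

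The run on chromosome 4 from 497291 to 497312 differed from these in letter case and in its surroundings. NextSeq replicates 1 and 2 listed 5 and 4 of its 5 positions, and HiSeq replicates 1 and 2 listed 5 and 4. All of these listings were in lower case only, so that each was read as A-to-G and none as its complement. There was no other recurrent difference within 100 bp, and the nearest listed site, 82026 bp away at 579338, was on the opposite strand. Its 5 positions lay within 22 bp.

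The remaining runs with 5 or 4 positions that are named here were each on the strand of the nearest listed site. The run on 3R from 7577795 to 7577899 held 5 positions, none in all 4 tables, at 12935 bp from the nearest listed site, with 3 further A-to-G differences of its strand and 6 differences of other kinds within 100 bp. On 2L from 9304115 to 9304136 there were 4 positions, 2839 bp from the nearest listed site, with 2 further A-to-G differences and 2 of other kinds. On 3R from 16629086 to 16629175 there were 4 positions, 3 of them in all 4 tables, at 3082 bp, with 3 and 2. On 3L from 4361998 to 4362010 there were 4 positions within 13 bp, at 7152 bp, with 2 further A-to-G differences and 0 others. The 10 runs named by size were completed by 3 runs of 3 positions on 2L, from 2780880 to 2780893, from 3881402 to 3881428 and from 14093728 to 14093824. Runs on 2R were counted but are not described by position. The genes at these places were not annotated here.

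**Figure D1:**
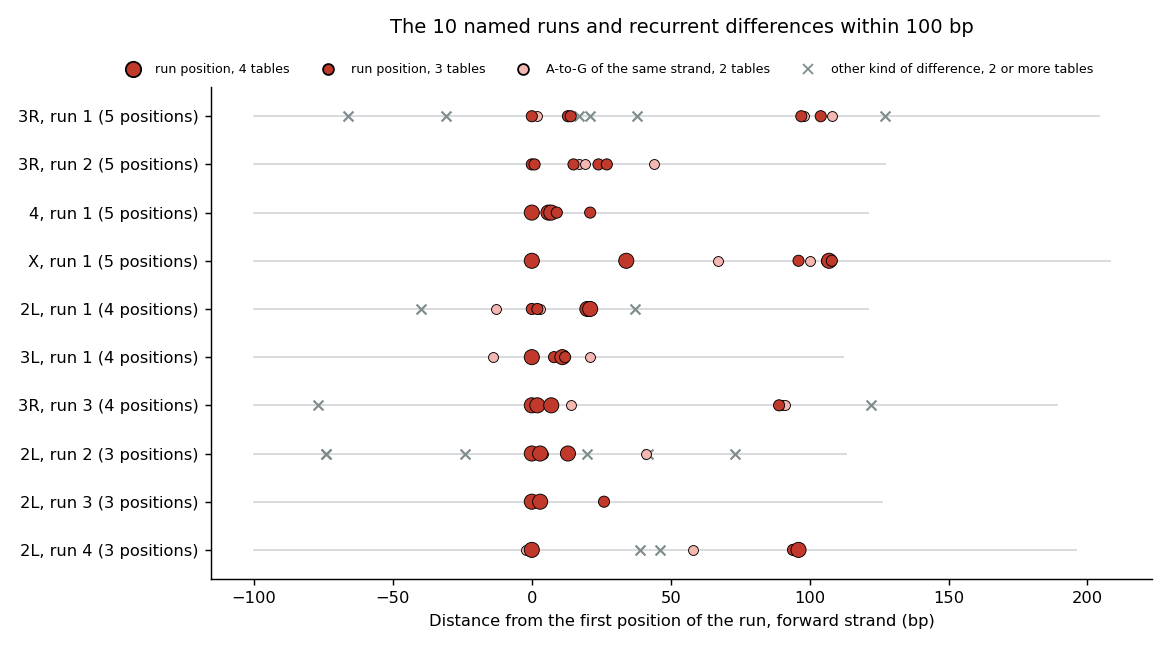
Positions along the 10 named runs, in bp from the first position of each run on the forward strand, with 1 row per run in order of size. Red points are the positions of the run (large in 4 tables, small in 3), pink points other A-to-G differences of the same strand in 2 tables, and grey crosses recurrent differences of any other kind; 5 of the 10 runs have no grey cross within 100 bp, the second on 3R, those on 4, X and 3L, and the third on 2L.

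Runs made up a larger part of the recurrent distant A-to-G and T-to-C positions than of the C-to-T and G-to-A positions under the same filter. These changes serve for comparison because the deaminase makes neither of them. The alignment did not treat them like A-to-G. Reads left over by the first aligner went to one set to treat A-to-G mismatches apart from others. What this did to the comparisons with C-to-T and G-to-A, here and below, was not tested. The C-to-T and G-to-A positions numbered 1395, which was 1.41% of 99250. In runs of 2 or more stood 157 of the 771 positions (20.4%, exact 95% binomial interval 17.6 to 23.4), in 61 runs, against 102 of the 1395 C-to-T and G-to-A positions (7.31%, 6.00 to 8.81), in 47 runs. The intervals cover counting error only, and no test was made, since positions of a run share a transcript. There were 40 runs of 2, 12 of 3, 4 of 4 and 5 of 5 positions, and the median span was 11 bp. The C-to-T and G-to-A positions formed 41 runs of 2, 4 of 3 and 2 of 4.

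Positions that were in all 4 tables stood in runs in 29.7% of cases (58 of 195), and those in 3 tables in 17.2% (99 of 576). For C-to-T and G-to-A these shares were 8.96% and 6.21%. Within 10000 bp of a listed site 28.5% of the 193 A-to-G and T-to-C positions were in runs, against 17.6% of the 578 farther away. For C-to-T and G-to-A the corresponding shares were 7.29% and 7.32%. The listed sites themselves, where detected in 3 or more tables, were in runs in 56.7% of cases (325 of 573).

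Close neighbours were nearly always on the same strand. Of 104 neighbouring pairs at most 100 bp apart, 96 had the same reference base, A with A or T with T (92.3%, 85.4 to 96.6), against 53 of 96 neighbouring pairs of C-to-T and G-to-A positions (55.2%, 44.7 to 65.4). Counting only the first pair of each cluster, the numbers were 61 of 68 (89.7%) and 46 of 82 (56.1%), a difference of 33.6 points (p = 4.27e-06 by a two-sided Fisher's exact test, Benjamini-Hochberg adjusted p = 1.70e-05 over 4 tests added after the data were seen). The test took clusters as independent. Some lay near each other, such as those on X at 4256498 and 4260220, and may share a transcript. Directly adjacent bases gave 26 pairs, all 26 of the same base, while 5 of 11 adjacent C-to-T and G-to-A pairs were. The 206 pairs of listed sites within 100 bp all shared their base. Whether the strand of the transcript entered the rule behind the list is unknown here. Leaving out any of the 4 tables, with presence in the other 3 then required, gave 92.3% to 95.5% for the A-to-G and T-to-C pairs.

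Wider gaps gave lower shares. At gaps over 100 and up to 1000 bp, 48 of 70 pairs shared the base (68.6%, 56.4 to 79.1), which is close to the 66.9% of C-to-T and G-to-A pairs (81 of 121, 57.8 to 75.2). Over 1000 and up to 10000 bp the shares were 74.5% (70 of 94) and 56.6% (151 of 267). Beyond that distance they were 48.1% and 51.4%. Listed sites kept the same base in all 83 pairs over 100 and up to 1000 bp and in all 79 pairs over 1000 and up to 10000 bp, and 8 of the 68 clusters formed by the distant positions at 100 bp mixed A and T.

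**Figure D2:**
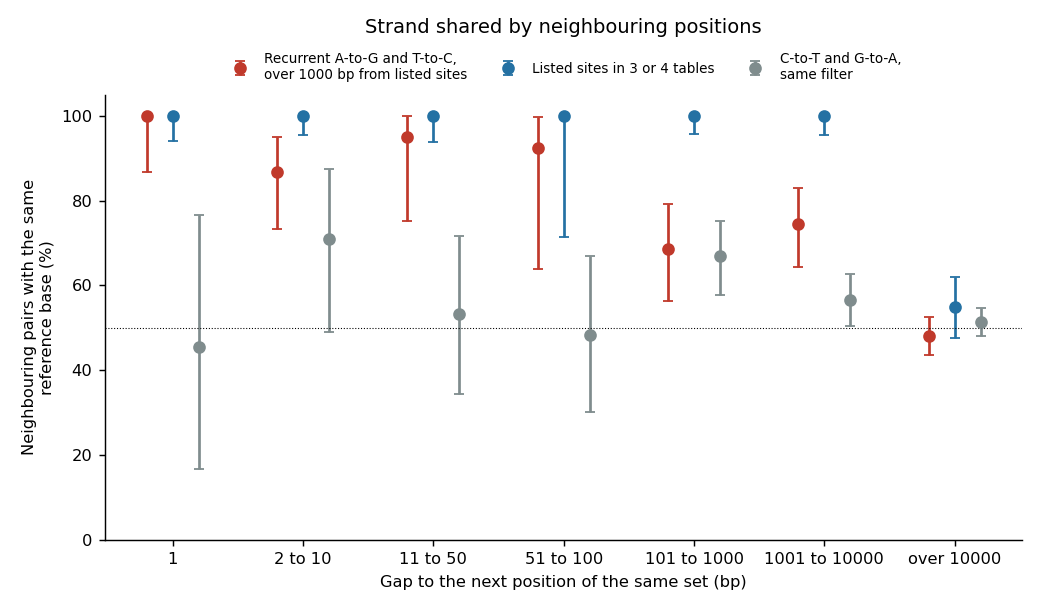
Share of neighbouring pairs with the same reference base (vertical axis, %) by the gap between them (horizontal axis, bp), for recurrent distant A-to-G and T-to-C positions (red), listed sites (blue) and C-to-T and G-to-A positions (grey). Points are shares and bars exact 95% binomial intervals; red points are above grey ones up to 100 bp (92.3% against 55.2% over those bins) and near 50% beyond 10000 bp.

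Among the differences that surrounded the positions, A-to-G of the same strand outnumbered T-to-C. Around the 157 positions in runs, 198 other differences were present in 2 or more tables within 100 bp. Read on the strand of the adenosine, 81 of them were A-to-G (40.9%) and 5 were T-to-C (2.53%), while 13 were C-to-T and 10 were G-to-A. Around the 614 single positions the same-strand A-to-G share was 10.3% (201 of 1951) and the T-to-C share 3.28% (64 of 1951). Around C-to-T and G-to-A positions, read on the strand of the cytosine, C-to-T made up 5.61% (237 of 4224) and G-to-A 4.10% (173 of 4224). Transversions were 44.9% of the differences around A-to-G and T-to-C runs, 70.4% around single positions and 79.7% around C-to-T and G-to-A positions. These differences share reads and transcripts with the positions, and their numbers depend on depth, which is unknown. The comparison was not tested. What the separate treatment of A-to-G mismatches in the alignment did to the A-to-G and T-to-C counts was not tested either.

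Most positions that lay within 10000 bp of a listed site were on its strand. Of 180 positions within 10000 bp of a listed site of known reference base, 146 were on its strand (81.1%, 74.6 to 86.6), against 122 of 265 C-to-T and G-to-A positions, with C taken as the base of the strand (46.0%, 39.9 to 52.2). Taking the first position of each stretch joined at 10000 bp, the numbers were 70 of 92 (76.1%) and 71 of 152 (46.7%), a difference of 29.4 points (p = 8.49e-06 by a two-sided Fisher's exact test, adjusted p = 1.70e-05 over the 4 added tests). Leaving out a table gave shares of 82.1% to 88.8% over all positions. Of the 92 stretches, 63 lay wholly on the strand of the nearest listed site, 15 wholly on the other strand and 14 were mixed. Beyond 10000 bp the share was 53.2% (314 of 590).

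Positions in runs and single positions were also counted apart. Within 10000 bp it was 48 of 50 positions in runs (96.0%, 86.3 to 99.5), including all 13 at 2000 bp or less, and 98 of 130 single positions (75.4%, 67.1 to 82.5). A-to-G and T-to-C positions that recurred less were intermediate, with 69.1% of 1265 positions in 2 tables and 60.8% of 17210 in 1 table on the strand of the nearest site. These shares were given by all positions of a stretch and were not tested against each other.

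**Figure D3:**
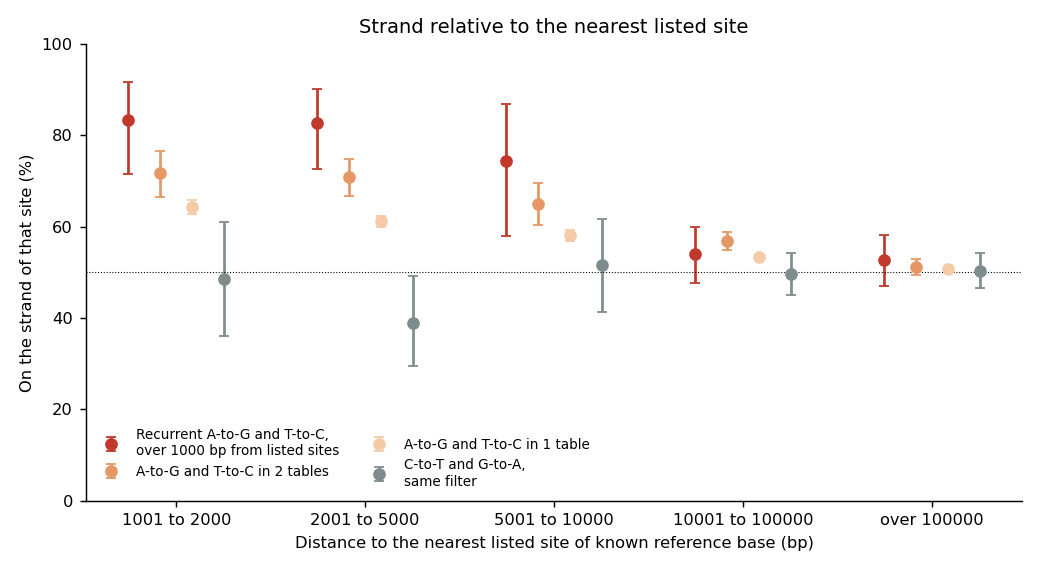
Share of positions on the strand of the nearest listed site of known base (vertical axis, %) by the distance to that site (horizontal axis, bp), for A-to-G and T-to-C in 3 or 4 tables (red), in 2 tables (orange) and in 1 table (pale), and for C-to-T and G-to-A in 3 or 4 tables (grey). Bars are exact 95% binomial intervals; the red points fall to 53.9% between 10000 and 100000 bp, and the grey ones run from 39.0% to 51.5%.

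Positions lay close to the distance limit on both sides. The nearest ones outside 2R lay 1021 bp (3R 4662311), 1023 and 1031 bp (X 17819634 and 17819626) and 1033 bp (3L 5150974) from a listed site. Just short of the limit were positions at 996 bp (3R 20508453), 970 bp (X 18065129), 958 bp (3R 16364720), 939 bp (X 17845810) and 935 bp (X 17819722), each in 3 tables like those inside. The median distance was 61891 bp over 770 positions, and 306 positions (39.7%) lay more than 100000 bp from any listed site; 1 position was on a scaffold without listed sites. For C-to-T and G-to-A the median was 71793 bp and 583 positions (41.8%) were beyond 100000 bp.

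At these distances a smaller share of the A-to-G and T-to-C positions recurred than of C-to-T and G-to-A. In 1 table they outnumbered C-to-T and G-to-A, 111934 against 89918. There were 7154 against 7937 in 2 tables, 576 against 837 in 3 tables, and 195 against 558 in all 4 tables. The ratio was 0.553 at 3 or more tables (0.505 to 0.604, from the exact interval of the share) and 0.349 at 4. Of the 771 positions 408 had A and 363 had T as reference base. Absence from a single table was spread over the libraries, with 158 and 145 positions missing only from NextSeq replicates 1 and 2, and 154 and 119 only from HiSeq replicates 1 and 2.

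Most of the distant positions were seen in a single letter case in each table. In NextSeq replicates 1 and 2, 74 of 613 (12.1%) and 114 of 626 (18.2%) listed positions were in both cases, and in HiSeq replicates 1 and 2, 67 of 617 (10.9%) and 119 of 652 (18.3%). The mean over the 4 tables was 14.8% ± 3.94 (SD, n = 4 tables), against 29.9% ± 4.50 for C-to-T and G-to-A positions and 57.0% ± 17.9 for listed sites. The share was lower than that of C-to-T and G-to-A in 4 of 4 tables, with differences of -17.5 to -12.6 points (two-sided exact paired permutation test over tables, p = 0.125, the smallest that 4 tables allow, adjusted p = 0.167 over 4 comparisons). It was also lower than that of listed sites in 4 of 4 tables, with differences of -55.5 to -29.3 points (exact p = 0.125, adjusted p = 0.167). At listed sites the share was 41.3% and 71.1% in NextSeq replicates 1 and 2, and 41.8% and 73.8% in HiSeq replicates 1 and 2. Values thus went by replicate number more than by instrument, while the paired tests over tables took the 4 as independent. Whether read strand entered the rule behind the list is unknown here. NextSeq and HiSeq did not differ detectably, with means of 15.1% ± 4.34 and 14.6% ± 5.23 (SD, n = 2 each; p = 1 by an exact two-sided permutation test, where 0.333 is the lowest that can be had).

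Over the libraries together, 241 of the 771 positions were in both cases in at least 1 table (31.3%, 28.0 to 34.7), and 377 were in the same single case throughout. The share in both cases was 45.2% among the 157 positions in runs and 27.7% among the 614 single positions. Among C-to-T and G-to-A positions it was 45.1% in runs and 52.5% for single ones. Positions in all 4 tables were in both cases more often (49.7%) than those in 3 (25.0%), but they also had 1 more table in which to show both. Of the 157 positions in runs 58 were in all 4 tables, against 195 of the whole 771. The contrast between runs and single positions was not tested apart from this. Reads per position are unknown, so that a low share of both cases cannot be told apart from low depth.

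Single-case listings favoured the sense in which the read showed A-to-G. In NextSeq replicates 1 and 2, 64.6% and 67.2% of the single-case listings were read as A-to-G and the rest as T-to-C, and in HiSeq replicates 1 and 2, 63.8% and 59.7%. For C-to-T and G-to-A positions 50.0% and 52.9% were read as C-to-T on NextSeq, and 50.1% and 55.5% on HiSeq. The mean difference was 11.7 points, in the same direction in 4 of 4 tables (p = 0.125 by the exact paired permutation test, again the lowest that can be had, adjusted p = 0.167). Against listed sites, which averaged 58.8% ± 6.31, the difference of 4.99 points had the same sign in 3 of 4 tables (exact p = 0.25, adjusted p = 0.25). What the separate treatment of A-to-G mismatches in the alignment did to the sense of the reads was not tested.

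**Figure D4:**
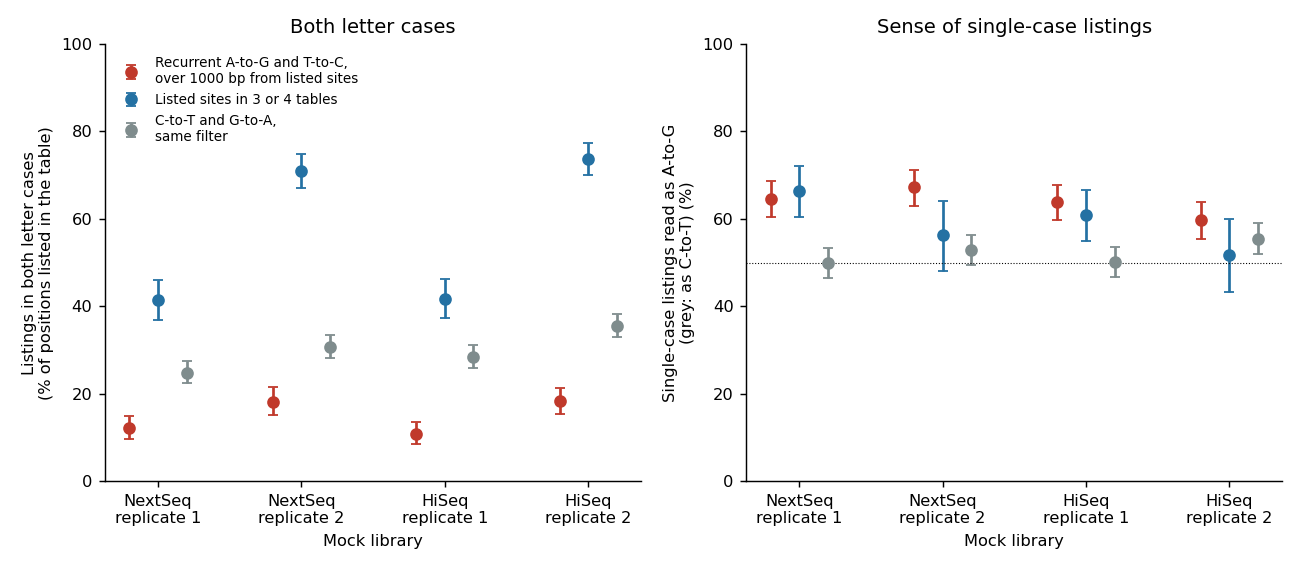
Left, share of listed positions that a table gave in both letter cases (%), by mock library, for recurrent distant A-to-G and T-to-C positions (red), listed sites (blue) and C-to-T and G-to-A positions (grey); right, share of single-case listings read as A-to-G (grey points, as C-to-T). Bars are exact 95% binomial intervals; red points are the lowest of the 3 sets in each library on the left (10.9% to 18.3%) and lie between 59.7% and 67.2% on the right.

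Both letter cases in all 4 tables were found at 12 of the 771 positions (1.56%). This was a smaller share than among C-to-T and G-to-A positions (82 of 1395, 5.88%) and listed sites (117 of 573, 20.4%). Only positions present in all 4 tables could qualify, however, and these were 195 of the 771, 558 of the 1395 and 362 of the 573. The shares therefore also carry the different recurrence of the 3 sets. Of the 12 positions, 5 were on 2R or its heterochromatin scaffold. The other 7 were of different kinds. At 2L 9304136 and X 8916902, both within named runs, 5 of 7 and 7 of 7 of the other recurrent differences within 100 bp were of the same change. These counts include the other positions of the run, which share the change by definition. Beside the run positions, the 2L run had 2 further differences of the same change and 2 of other kinds, and the X run 3 and 0. At X 3789833, which stood in no run, 2 of 4 were of the same change. The positions at 2L 22884362, 3L 19204571, 3LHet 1158938 and X 19464359 had no other recurrent difference within 100 bp, and each was on the strand opposite to the nearest listed site, at 2153875, 423878, 107801 and 71262 bp. Beyond 10000 bp 53.2% of the distant positions were on the strand of the nearest listed site, so the strand of these says little.

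No depletion of G was detectable on the 5′ side of the distant positions. A neighbouring base was known where a table listed any change at it, and entries of A-to-G and T-to-C were not used for this. G made up 25 of 136 known bases on the 5′ side (18.4%, 12.3 to 25.9), against 18.9% of the 2000 known bases at offsets of 3 to 10 (p = 1 and adjusted p = 1 over 8 tests, by a two-sided Fisher's exact test). At listed sites in 3 or more tables G was 1 of 50 (2.00%, 0.0506 to 10.6). The distant positions differed from these by 16.4 points (Fisher's exact test, p = 0.00331, adjusted p = 0.00442 over the 4 added tests). The small difference from the surrounding bases was negative. Tables were also left out in turn as sources of known bases only, and the positions were not chosen again. The difference turned positive without NextSeq replicate 2 (24.0% of 96 bases, against 22.2% around), without HiSeq replicate 1 or without HiSeq replicate 2. By Fisher's exact test, adjusted p was 0.604 or more without any of the 4 tables.

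Over the whole set of 771 positions no other neighbouring base passed the threshold of 0.05 either. On the 5′ side A was 39.7% of known bases, against 31.4% around (Fisher's exact p = 0.0461, adjusted p = 0.123). On the 3′ side C was 31.1% against 21.8% (exact p = 0.0142, adjusted p = 0.0635) and A 21.5% against 31.4% (exact p = 0.0159, adjusted p = 0.0635), while G was 22.2% against 18.9% (exact p = 0.365, adjusted p = 0.584). At listed sites G on the 3′ side was 28.2% of 71 bases, against 14.7% around (exact p = 0.00596, adjusted p = 0.0258).

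In the runs few neighbouring bases were known. G stood on the 5′ side at 1 of 20 positions in runs (5.00%, 0.127 to 24.9) and at 24 of 116 single positions (20.7%, 13.7 to 29.2), a difference of -15.7 points that did not pass (Fisher's exact test, p = 0.123, adjusted p = 0.123). Within 10000 bp of a listed site it was 3 of 32 (9.38%, against 15.7% around, Fisher's exact test, adjusted p = 0.834) and farther away 22 of 104 (21.2%). Tests on neighbouring bases treat positions as independent, and a base near several positions was counted for each. Bases are known only where a difference was listed.

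In subsets of the positions, 3 of the 56 tests on neighbouring bases, those on the whole set included, passed when adjusted over the 8 tests of their subset. Within 10000 bp of a listed site A stood on the 5′ side at 20 of 32 positions (62.5%, 43.7 to 78.9), against 31.7% of the bases around (Fisher's exact test, adjusted p = 0.00585 over 8 tests and 0.0410 over all 56). Farther than 10000 bp A was 34 of 104 (32.7%), against 31.2% around; the difference between near and far positions was not tested. At positions in all 4 tables C was 0 of 30 on the 5′ side (exact upper limit 11.6%), against 19.7% around (Fisher's exact test, adjusted p = 0.0224 over 8 tests and 0.0784 over 56). On the 3′ side of the same positions C was 13 of 32 (40.6%), against 19.7% around (Fisher's exact test, adjusted p = 0.0456 over 8 tests and 0.0988 over 56). Of the 3, the A near listed sites was the one that passed over all 56.

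The distant positions and the C-to-T and G-to-A ones were compared by chromosome arm. X held 160 of the 771 (20.8%, 17.9 to 23.8), against 456 of the 1395 C-to-T and G-to-A positions (32.7%, 30.2 to 35.2). 3R held 166 (21.5%) against 242 (17.3%), 2L 128 (16.6%) against 186 (13.3%), 3L 119 (15.4%) against 246 (17.6%), and 2R 100 (13.0%) against 153 positions. Chromosome 4 held 43 (5.58%, 4.07 to 7.44) against 34 (2.44%, 1.69 to 3.39). In relation to all A-to-G and T-to-C positions beyond 1000 bp, recurrence in 3 or more tables ran from 0.501% on 2R and 0.535% on 3L to 0.675% on X and 0.881% on chromosome 4. For C-to-T and G-to-A it was highest on X among these arms, at 2.35%, and ran from 0.890% on 2R to 1.31% on 3L on the others. The arms were not compared by a test, since positions in a transcript are not independent.

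The heterochromatin scaffolds had the highest such share. They held 55 of the positions (7.13%), which was 2.20% of the A-to-G and T-to-C positions there, and 20 of the 55 were in all 4 tables. For C-to-T and G-to-A the scaffolds held 78 positions, 4.46% of those there. Of the 55 positions on scaffolds 5 were in runs, against 17 of 119 on 3L, 31 of 160 on X and 35 of 100 on 2R. Of the 78 C-to-T and G-to-A positions on scaffolds 8 were in runs. The authors kept 1 alignment per read. Without the scaffolds 716 positions remained, of which 21.2% were in runs.

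**Figure D5:**
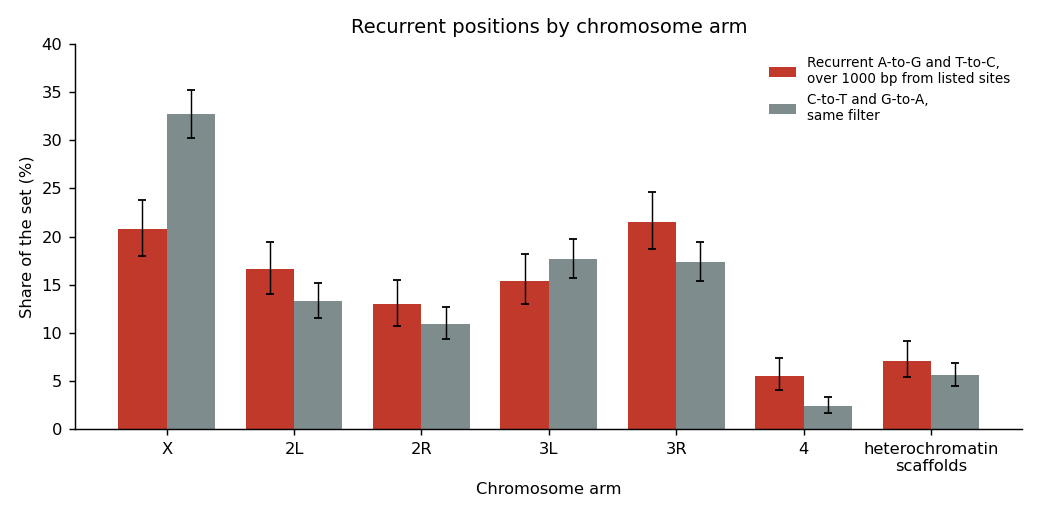
Share of the 771 recurrent distant A-to-G and T-to-C positions (red) and of the 1395 C-to-T and G-to-A positions under the same filter (grey) on each chromosome arm (%), with exact 95% binomial intervals as bars. The red bar is lower than the grey one on X (20.8% against 32.7%) and on 3L, and higher on the other arms and the scaffolds.

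A differing base other than the expected one was also listed at some of the positions. At 158 of the 771 positions at least 1 table gave another base (20.5%, 17.7 to 23.5), and at 24 (3.11%) 3 or more tables did. Of the C-to-T and G-to-A positions 379 (27.2%) had another base in at least 1 table and 43 (3.08%) in 3 or more. Of the 573 listed sites, 71 (12.4%) had another base in at least 1 table and 0 in 3 or more (exact upper limit 0.642%).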

How the data were processed

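Per the labels' protocols, TopHat 2.0.6 with Bowtie 2.0.2 placed the reads on dm3 (BDGP R5), allowing 4 mismatches and 1 alignment. Reads left over were given to bsmap 2.74, allowing 3 mismatches and using its option for G and A (-M GA), which treats A-to-G mismatches apart from others. The submitters' processing notes also name SAMtools 0.1.19. The calling rules for differences and listed sites are not given in the sources. Per the file headers, a deposited table has a position, the reference base there and the base that differed; the list of sites gives 1-bp positions. Each table was taken as the library whose title its name carries.

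Here the tables were joined by position, reference base and upper-cased differing base. Known bases came from the reference column. Strand was taken from the reference base, and read strand from letter case. Distances, runs, shares with exact (Clopper-Pearson) intervals, Fisher's exact tests and exact permutation tests over tables were computed in Python 3.11.15 (pandas 2.3.3, numpy 2.4.6, scipy 1.17.1, figures in matplotlib 3.10.9). The choice of positions and the test for 5′ G were tried on simulated data, and the other steps were not. Named were the 10 runs with the most positions outside 2R, ties by position, and the positions in both cases in all 4 tables, of which those on 2R are only counted. The positions, measures and tests were chosen with earlier results of these data known. The comparison with the strand of the nearest listed site, the surrounding differences, the 4 added Fisher tests and the adjustment over all 56 tests on neighbouring bases were chosen after the data were seen.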

Additional observations from a re-analysis of the deposited data

How the results depend on the processing

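The number of positions follows its rule: 7925 were in 2 or more tables and 195 in all 4. When 1 table was left out and all of the other 3 were required, 314 to 353 remained. The ratio to C-to-T and G-to-A was then 0.435 to 0.446; it was 0.849 at 2 or more tables, 0.349 at 4, and 0.605 at over 100 bp from listed sites. Leaving out a table gave 17.6% to 21.8% of positions in runs, 31.2% to 39.7% in both cases, 18.2% to 20.1% on 2L, 17.5% to 20.1% on 3R, and 82.1% to 88.8% on the strand of the nearest listed site. Counting each case in any table raised the share in both cases to 51.1%.

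The difference of both-case shares between NextSeq and HiSeq, 0.586 points, had no stable sign: it was -1.28 points over positions in all 4 tables and -5.30 to 4.25 points when a table was left out, where 1 library stands alone and no test was made. With the replicate block it was 0.586 points (exact paired p = 1, smallest possible 0.5); replicate 2 was higher than replicate 1 on both instruments, but the labels do not say that the numbers mark a shared preparation. For the share of 5′ G, a table was left out only as a source of known bases, and the positions were not chosen again. The share was then 17.3% to 24.0%. It was 19.05% with 1 position per run, and 18.4% set against offsets 3 to 20. The difference from the surroundings changed sign in these last 2 and passed the threshold in none of these settings. When every entry of the tables was allowed to give a base the share was 11.7% (Fisher's exact test, adjusted p = 0.186). Without read counts, a difference missing from a table cannot be separated into uncovered and unedited.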
